A study of Homo sapiens with 4 samples.

Results

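The ABC transporter genes were examined for H3K14ac, acetylation of lysine 14 on histone H3, in MKN45 gastric cancer cells with a hairpin against NIT2 (shNIT2) and with a control hairpin (shNT). They were taken as every protein-coding gene of the RefSeq table of GRCh38.p14 (hg38) whose symbol is ABC, a letter from A to G and a number, which gave 45 of 20033 genes. Subfamily A had 12 of them, B 9, C 11, D 4, E 1, F 3 and G 5. MKN45 is an established cell line. Each condition had 1 H3K14ac library from formaldehyde-fixed, sonicated chromatin and 1 input library without antibody. The shNIT2 and shNT peak lists were the measurements. The input libraries were not analysed here, and no difference below has a replicate check.

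ABC proteins couple ATP hydrolysis to the movement of lipids, peptides, metals, bile acids, conjugates and drugs across membranes. Members of subfamilies B, C and G are known for exporting cancer drugs, subfamily A mostly moves lipids, subfamily D serves peroxisomes and lysosomes, and the E and F proteins have no membrane domain and act in translation. H3K14ac is found at active promoters and enhancers. The study's title links NIT2 to fluorouracil resistance, so the drug exporters among these genes were set apart as a list of 10: ABCB1, ABCB5, ABCC1, ABCC2, ABCC3, ABCC4, ABCC5, ABCC10, ABCC11 and ABCG2.

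The libraries differed in depth. The fragment pileup at a peak summit was solved from the authors' fold and p-value, and its median over all regions was 22 fragments in shNIT2 and 6 in shNT. The genome-wide background floor, the lowest local background of a list, was 2.48 fragments in shNIT2 and 0.278 in shNT, a ratio of 8.93. The lowest pileup in the shNT list was 3 fragments, or 10.8 times its floor, and the same multiple of the shNIT2 floor is 26.8 fragments. A shNIT2 region below 26.8 fragments would thus fall below the lowest shNT entry if shNT held the same multiple of its floor. Of the 81 shNIT2 regions over ABC genes, 43 were below it (53.1%), against 65.2% of all shNIT2 regions. Depth and the hairpin cannot be told apart in what is listed in shNIT2 alone. As a check of the cell type, all 8 epithelial markers looked up had a shNIT2 region at a gene end (4 in shNT). So did 5 of 8 gastric and gut markers in shNIT2 (0 in shNT). For comparison, 36.8% of all genes were marked there in shNIT2 and 6.41% in shNT. The epithelial genes KRT8 and KRT18 overlap and had the same values (155 fragments in shNIT2, 8 in shNT), so they are not separate markers. The gastric genes TFF2, MUC6 and GKN1 had no region in either list. Of other cell types' markers, 2 of 5 mesenchymal genes (ACTA2 and VIM) and 1 of 4 leukocyte genes (CD3E) had a shNIT2 region at a gene end. In shNT 0 of them had a region there. The shNIT2 shares of these mesenchymal and leukocyte genes, 40% and 25%, were not far from that of all genes. The marker sets are small, and their differences from all genes were not tested.

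At their gene ends, meaning within 1 kb of either end of the gene, the ABC genes were marked no more often than genes at large. A shNIT2 region lay at a gene end of 15 of the 45 genes (33.3%), where 36.8% of all protein-coding genes had one. A shNT region did so for 2 genes (4.44%), where 6.41% of all genes had one. Among genes of a span like theirs, defined in the next paragraph, the shares were 43% in shNIT2 and 7.39% in shNT. The ABC counts take all 45 genes, also those outside that range, so the match for length is only rough. In shNIT2 alone 14 ABC genes were marked at a gene end (31.7% of all genes), in both lists ABCC3 (5.12% of all genes) and in shNT alone ABCC9 (1.29% of all genes), and 29 had no such region. In 9 of those 14 the strongest region at a gene end stayed under 26.8 fragments. The other 5 were ABCC1, ABCA12, ABCB9, ABCC2 and ABCD3. The ABCB9 region, with its summit 1334 bp inside the gene, overlapped a shNT region of 6 fragments. That shNT region lay beyond 1 kb from the end and so counted as interior.

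Inside the genes, beyond 1 kb from the ends, ABC genes carried regions more often than genes at large, but they are long genes. Their median span was 82.7 kb, against 24.1 kb for all protein-coding genes. Interior regions were present in 17 ABC genes (37.8%) in shNIT2 and in 21 (46.7%) in shNT, where 21.6% and 24% of all genes had them. Among genes whose span lay between the quartiles of the ABC genes, 31.2 and 116 kb, the shares were 30.8% in shNIT2 and 34.7% in shNT. The ABC genes span 7.81 to 476 kb, and those outside the quartiles were counted too. Shares for similar span, here and below, are thus only roughly matched for length. Interior regions stood in both lists for 12 ABC genes (11.3% of all genes), in shNIT2 alone for 5 (10.3%) and in shNT alone for 9 (12.7%). Interior regions without one at a gene end were seen in 10 ABC genes in shNIT2 (10.2% of all genes) and in 20 in shNT (22.1%). Over the whole span with 1 kb on both sides, 25 ABC genes (55.6%) had a shNIT2 region and 22 (48.9%) a shNT region. All genes stood at 47% in shNIT2 and 28.5% in shNT, and genes of similar span at 56.9% in shNIT2 and 38.8% in shNT. Both lists had a region over 14 ABC genes (19.6% of all genes), shNIT2 alone over 11 (27.4%), shNT alone over 8 (8.91%) and neither over 12. The last included ABCA3, ABCA6, ABCA7, ABCA8, ABCB4, ABCC6, ABCC12, ABCF1, ABCG1, ABCG4 and ABCG5.

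**Figure D1:**
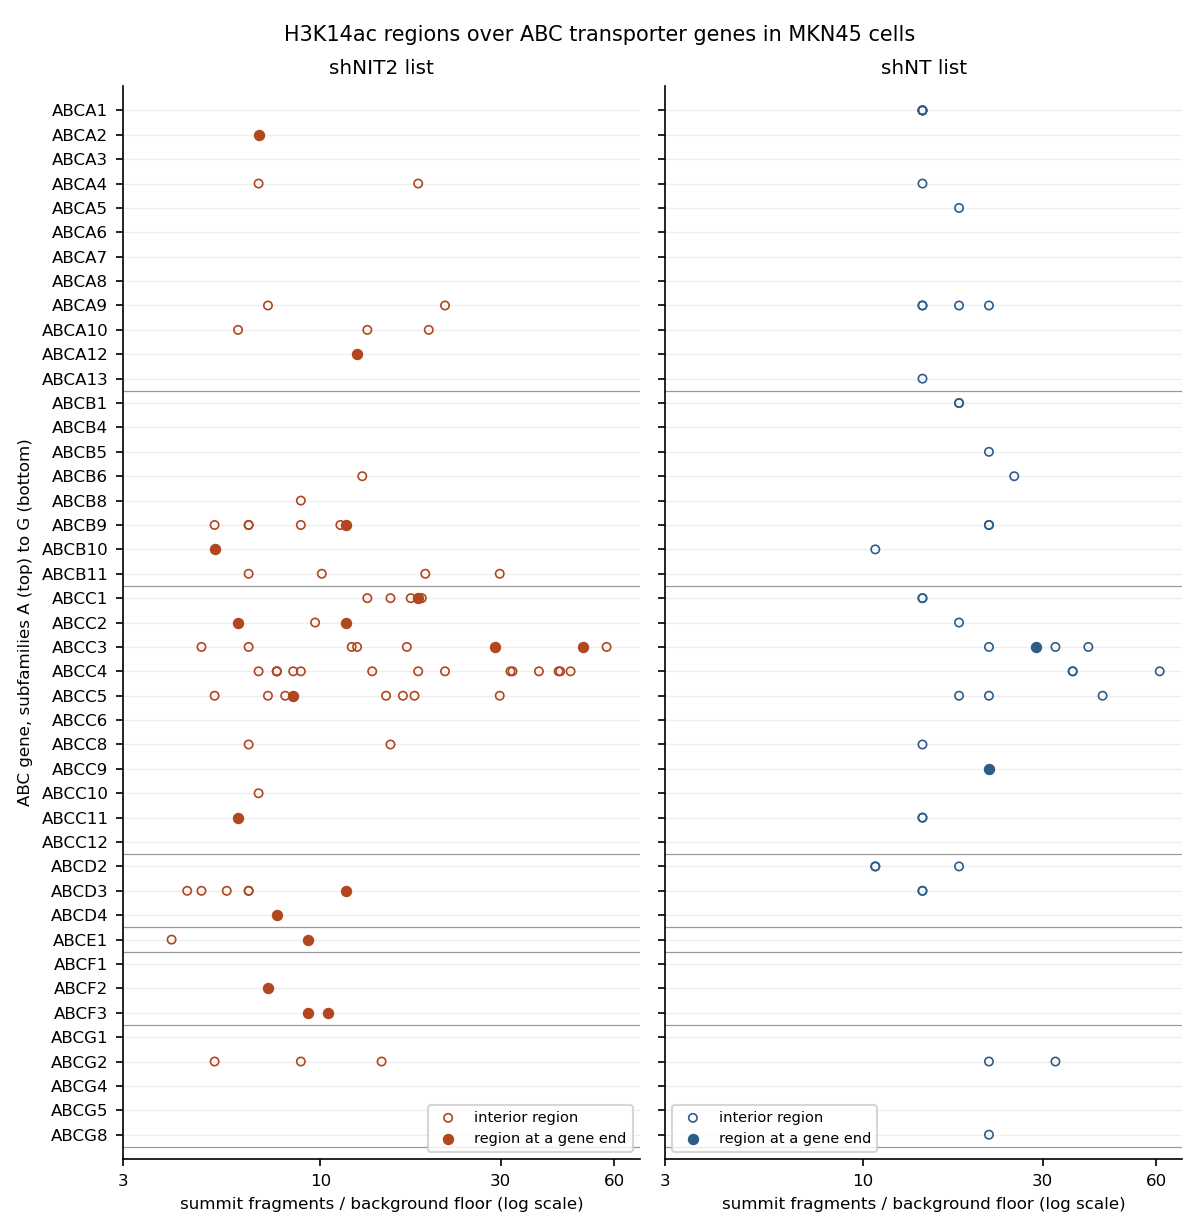
Each point is 1 H3K14ac region over one of the ABC genes drawn, placed by the fragments at its summit divided by the background floor of its list (log scale), with filled points at gene ends and open points in interiors; equal values coincide. In shNIT2 (left) the points gather at ABCC3, ABCC4 and ABCC5, whereas the shNT list (right) has 2 filled points, at ABCC3 and ABCC9.

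The 43 shNT regions rested on few fragments and were mostly interior. They held 3 to 17 fragments (median 5), 18 of them on 3 or 4 fragments, and 41 were interior. The 81 shNIT2 regions held 10 to 142 fragments (median 24), with 18 at gene ends and 63 interior. Fragment numbers follow the depth of each list. The median fold over these regions was 4.38 in shNIT2 and 4.33 in shNT, but these 2 values do not compare the lists. Fold was solved as the pileup plus 1 over the background plus 1, which lowers it most where the background is low, as in shNT. A shNT region of ABCC8 at 14.4 times its floor had a fold of 3.91, and a shNIT2 region there at 6.45 times had 3.52. A region on 4 fragments has an exact Poisson 95% interval of 1.09 to 10.2 fragments, which covers counting error only. Genes listed on such regions in shNT alone included ABCA1, the cholesterol and phospholipid exporter, with 4 regions of 4 fragments each, all interior, and no shNIT2 region.

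By subfamily, the counts at gene ends stand beside 36.8% of all protein-coding genes in shNIT2 and 6.41% in shNT, and differences between subfamilies were not tested. Of the 8 genes of subfamilies D, E and F, 6 had a shNIT2 region at a gene end (75%) and 0 a shNT region there. Subfamily C had 5 of 11 in shNIT2 (45.5%) and 2 of 11 in shNT (18.2%). Subfamilies A, B and G together had 4 of 26 in shNIT2 (15.4%) and 0 of 26 in shNT. The shNIT2 counts depended on the threshold. At a fold of at least 5 they were 0 in D, 1 in E, 0 in F and 2 in C. Subfamilies A, B and G then had 1, 0 and 0, where 18.3% of all genes were marked. With at least 26.8 fragments D had 1, E 0, F 0 and C 3. A, B and G then had 1, 1 and 0, where 16.2% of all genes were marked. Among the 3 subfamilies with the most genes, subfamily C had 3.09 interior regions per 100 kb of interior in shNIT2 and 1.29 in shNT. Subfamily B had 1.39 in shNIT2 and 0.884 in shNT, and subfamily A 0.472 in shNIT2 and 0.742 in shNT. All protein-coding genes had 0.941 in shNIT2 and 0.709 in shNT.

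**Figure D2:**
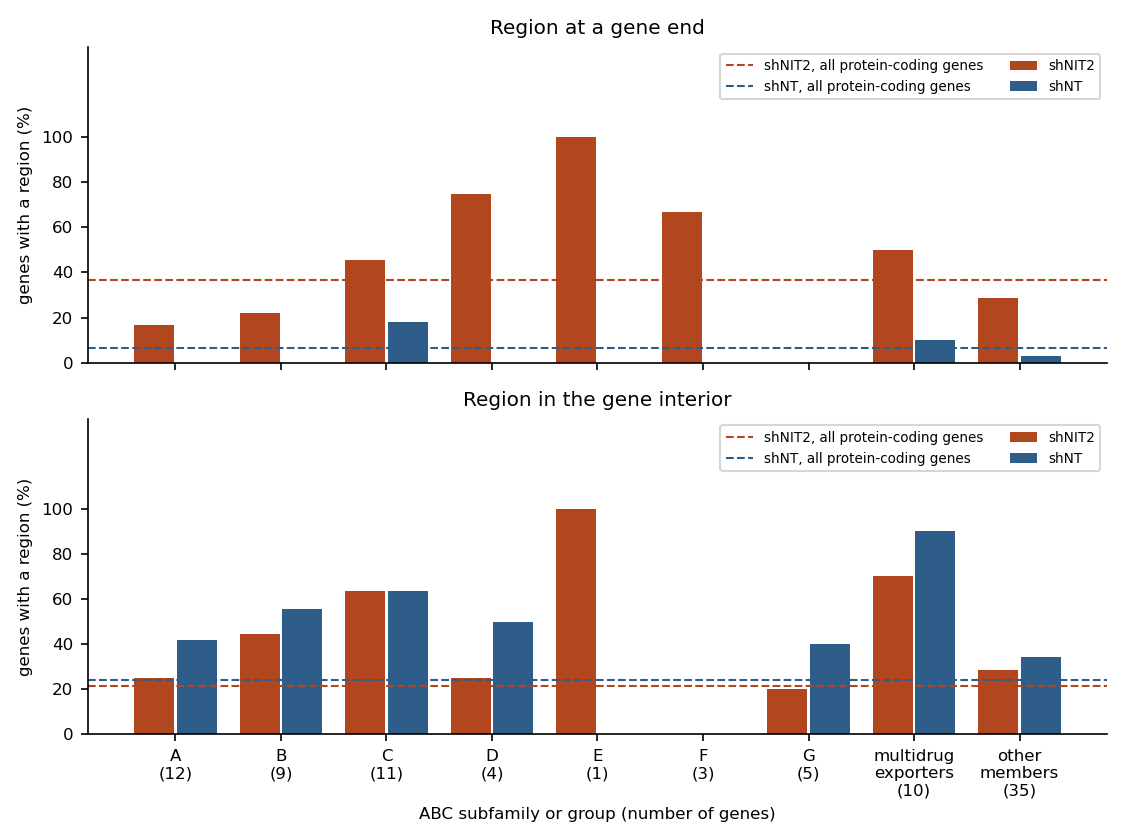
Bars give the percentage of genes with a region at a gene end (top) or in the interior (bottom) for each subfamily, the 10 multidrug exporters and the other 35 ABC genes, with shNIT2 left of shNT, and dashed lines give all protein-coding genes. At gene ends 5 of 10 exporters were marked in shNIT2, above the 36.8% line, and the 28.6% of the other 35 genes lay below it.

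The multidrug exporters held 44 of the 81 shNIT2 regions and 20 of the 43 shNT regions. Of the 10 genes, 5 were marked at a gene end in shNIT2 and 1 in shNT, against 10 and 1 of the other 35 ABC genes. Among all protein-coding genes the shares at gene ends were 36.8% in shNIT2 and 6.41% in shNT, and among genes of similar span 43% and 7.39%. Interior regions were present in 7 exporters in shNIT2 and in 9 in shNT, at 2.89 regions per 100 kb in shNIT2 and 1.48 in shNT. Of all genes 21.6% had one in shNIT2 and 24% in shNT, and of genes of similar span 30.8% and 34.7%. The range of similar span was set by all ABC genes, not by the exporters. ABCB1, ABCB5, ABCC1, ABCC4 and ABCG2 are longer than that range, and ABCC10 is shorter. These shares, at gene ends and in interiors, thus do not adjust the exporter counts for gene length. Within subfamily C, the 7 exporters had 41 shNIT2 regions, while ABCC6, ABCC8, ABCC9 and ABCC12 together had 2. ABCC4 alone held 15 of the shNIT2 regions. The interior density of all ABC genes in shNIT2 was 1.55 per 100 kb with it and 1.26 without it.

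ABCC3, an exporter of organic anions and bile salts at the basolateral membrane, held the shNIT2 region with the highest pileup of any ABC gene and was the one marked at a gene end in both lists (chromosome 17, 50634881 to 50692253). At its low-coordinate end lay a shNIT2 region from 50634341 to 50636840 on 72 fragments (11.1-fold, −log10 q 49.5) and a shNT region from 50634947 to 50635203 on 8 fragments (5.6-fold, −log10 q 4.81). Its strongest region, from 50660506 to 50663705 with its summit 27629 bp from that end, held 142 fragments (19.4-fold) and ranked 141 of the 28187 shNIT2 regions. The shNT list had 11 fragments there (8.02-fold). At the high-coordinate end a shNIT2 region from 50690951 to 50694126 held 123 fragments (18.4-fold). Its summit lay 1490 bp beyond ABCC3, outside the gene and the 1 kb window. The region overlapped ANKRD40 and reached a gene end of it. No shNT region lay within 1 kb of this end of ABCC3, but one beyond that distance overlapped the shNIT2 region. In all, ABCC3 had 8 regions in shNIT2 and 4 in shNT.

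ABCC4, which exports cyclic nucleotides, prostaglandins and nucleotide analogues, had the most regions but none at its ends (chromosome 13, 95019835 to 95301451). Of its 15 shNIT2 regions, 14 stood in one run of 58.0 kb from 95098192 to 95156222, on 17 to 114 fragments (2.40 to 14.8-fold), of which regions covered 38.3%. Their summits lay 146469 to 203196 bp downstream of the gene's start. Local backgrounds in the run were 4.48 to 9.57 fragments, against a median of 4.25 over all shNIT2 regions. The 3 shNT regions of the gene lay in the same stretch, on 17, 10 and 10 fragments, and all overlapped shNIT2 regions. Only 50 of the 20033 protein-coding genes (0.25%) had 15 or more interior shNIT2 regions, a count not adjusted for length, and ABCC4 spans 281617 bp. Per 100 kb of interior it had 5.36 shNIT2 regions, against 0.941 for all genes. ABCC3 (10.8), ABCB9 (9.17) and ABCC5 (7.30) had more, as did ABCB6 (13.9) and ABCB8 (5.77) on 1 region each.

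ABCC5, an exporter of nucleotide analogues that is known to carry fluoropyrimidine monophosphates, was marked at its start and had 7 interior shNIT2 regions (chromosome 3, 183919934 to 184017884). The start region, from 184017050 to 184017431, held 21 fragments in shNIT2 (3.73-fold, −log10 q 5.29) and no shNT region was listed. The strongest region, from 184006418 to 184008550, held 74 fragments in shNIT2 (13.0-fold), with its summit 11189 bp downstream of the start and over the antisense RNA gene ABCC5-AS1. Inside it the shNT list had 2 regions, on 5 and 12 fragments. Near the far end, shNIT2 had regions of 44 and 41 fragments, and a shNT region of 6 fragments overlapped the second.

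ABCC1, the multidrug resistance protein that exports glutathione conjugates and anthracyclines, had a shNIT2 region of 45 fragments over its low-coordinate end (chromosome 16, 15948998 to 15950533, 9.53-fold). A group of 4 more lay from 16021420 to 16029733, on 33 to 46 fragments. In shNT the gene had 2 interior regions of 4 fragments each, and neither overlapped a shNIT2 region. ABCC2, the apical conjugate exporter, had 3 shNIT2 regions around its start, from 99781749 to 99785228 on chromosome 10, on 15, 29 and 24 fragments (2.97 to 3.71-fold). In shNT it had 1 region of 5 fragments, 2979 bp downstream of the start. ABCC11, which exports cyclic nucleotides and is also known to carry fluoropyrimidine monophosphates, had 15 fragments in shNIT2 at the end opposite its starts (chromosome 16, 48165281 to 48165834). In shNT it had 2 interior regions of 4 fragments each. ABCC10, an exporter of taxanes, had 1 interior shNIT2 region of 17 fragments (4.09-fold) and none in shNT.

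The remaining exporters had no region at a gene end in either list. ABCB1, which encodes P-glycoprotein (chromosome 7, 87503017 to 87713295), had no shNIT2 region over its 210279 bp and 2 interior shNT regions, of 5 fragments each. ABCB5 likewise had 0 shNIT2 regions and 1 interior shNT region, of 6 fragments. ABCG2, the breast cancer resistance protein (chromosome 4, 88090264 to 88231626), had 3 interior shNIT2 regions from 88142854 to 88146019, on 13, 36 and 22 fragments. The strongest (10.4-fold) lay 14281 bp downstream of the nearest listed start and overlapped a shNT region of 9 fragments (7.83-fold). A second shNT region of 6 fragments lay upstream of the nearest listed start, at -2275 bp. None of the 5 listed starts of ABCG2 and neither of the 2 of ABCB1 had a region within 1 kb in either list.

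**Figure D3:**
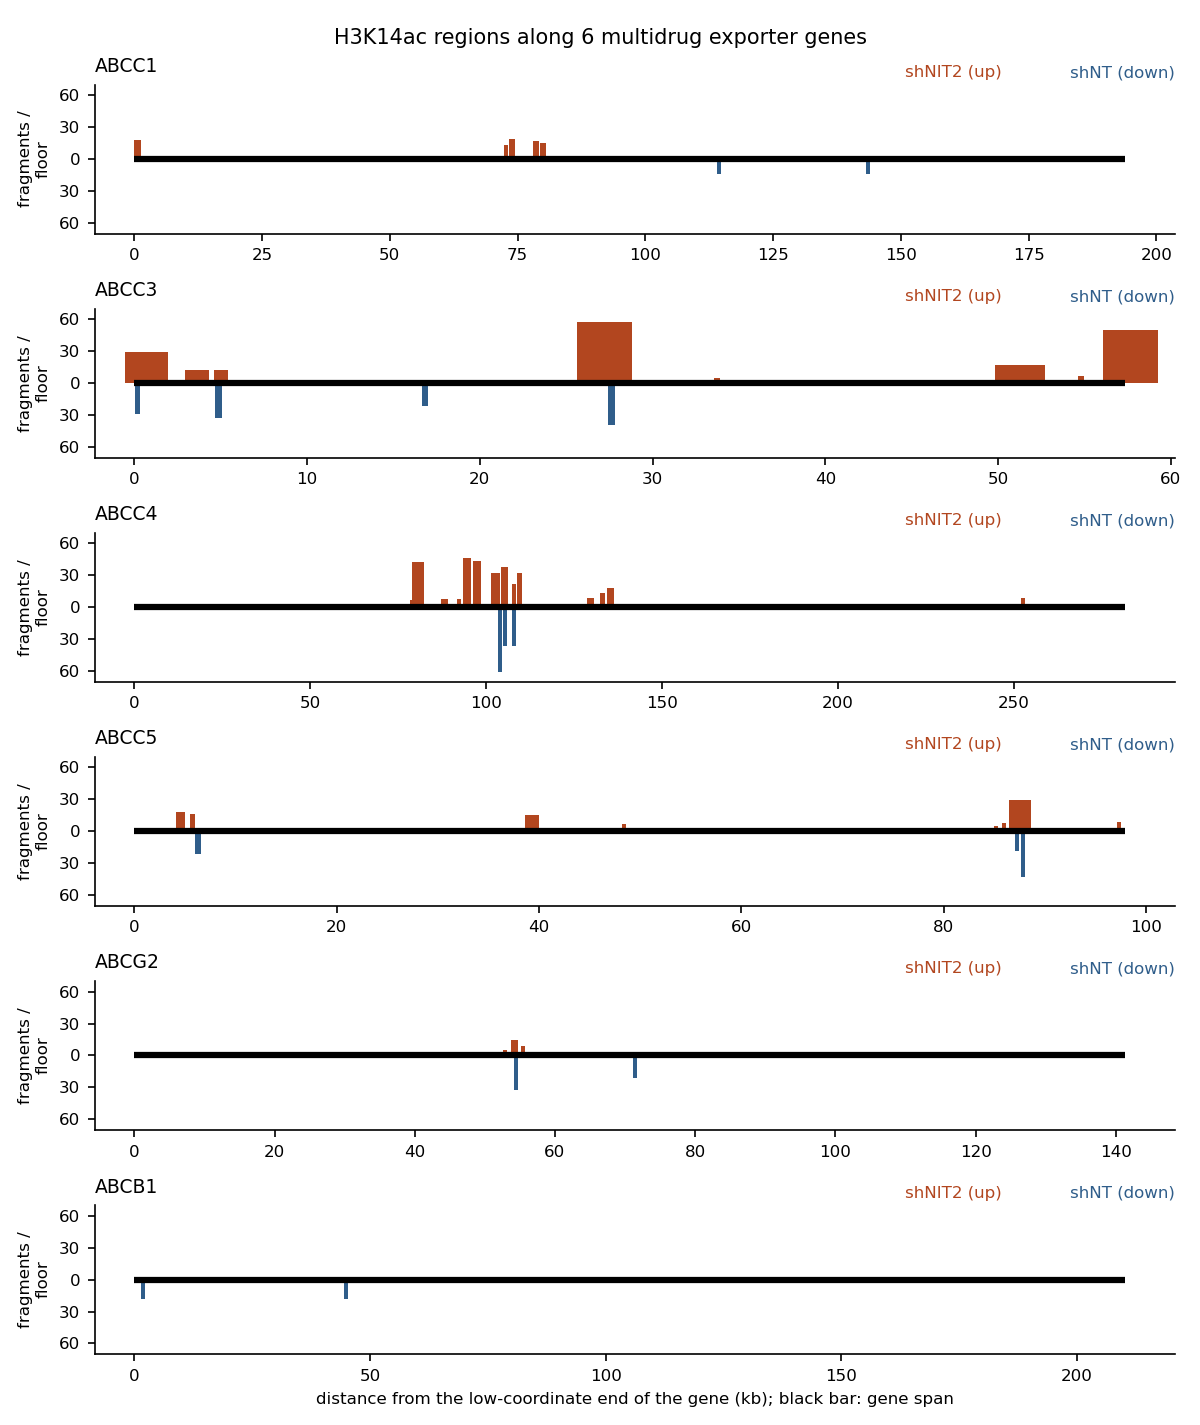
Regions along 6 multidrug exporter genes, by distance from the low-coordinate end of each gene (kb), with bar height the summit fragments divided by the background floor, upwards for shNIT2 and downwards for shNT, and with narrow regions widened to stay visible. ABCC4 shows the run of 14 shNIT2 regions that contains its 3 shNT regions, and ABCB1 shows 2 shNT regions only.

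The genes of subfamilies D, E and F were marked near their ends on moderate pileups, all in shNIT2 alone. ABCE1, which splits ribosomes for reuse, had 23 fragments with the summit 268 bp downstream of its start (chromosome 4, 145098370 to 145099092, 5.67-fold). That region also reached a gene end of ANAPC10. ABCF3 had regions of 26 and 23 fragments (3.88 and 4.88-fold) on either side of its start, and ABCF2 had 18 fragments (2.43-fold), in a region that also lies at an end of ABCF2-H2BK1. ABCF1 had none in either list. ABCD3, a peroxisomal importer of branched-chain acyl groups, had 29 fragments at its low-coordinate end (4.45-fold). It also had 16 fragments 523 bp downstream of its listed start, which lies inside the annotated span. ABCD4, a lysosomal cobalamin transporter, had 19 fragments (3.10-fold) at an end shared with VRTN. ABCD2 had 3 interior shNT regions of 3 to 5 fragments and none in shNIT2.

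The genes of subfamily A, of which 6 were listed as lipid transporters and 6 as less characterised, were marked at their ends in 2 of 12 cases in shNIT2 and 0 in shNT. ABCA12, which loads lipids into epidermal lamellar granules, had 31 fragments over its start (chromosome 2, 215137548 to 215138757, 5.24-fold). ABCA2, an endolysosomal lipid transporter, had 17 (3.73-fold), with the summit 406 bp downstream of the nearest listed start. Neither had a shNT region. A tandem group on chromosome 17 holds ABCA8, ABCA9, ABCA6, ABCA10 and ABCA5 over 459.8 kb (68867289 to 69327133). No gene end in it was marked in either list. Inside ABCA9 shNIT2 had 18 and 53 fragments and inside ABCA10 it had 15, 33 and 48 fragments, each set within 3.83 kb. ABCA9 also had 4 shNT regions of 4 to 6 fragments, none overlapping those of shNIT2, and ABCA5 had 1 shNT region of 5 fragments. ABCA4, the retinal lipid flippase, had interior shNIT2 regions of 17 and 45 fragments and a shNT region of 4 fragments at another place. ABCA13 had a single shNT region of 4 fragments.

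In subfamily B, ABCB11, the bile salt export pump of liver, had the strongest interior region outside subfamily C. It had 4 shNIT2 regions from 169009869 to 169015797 on chromosome 2, on 25, 74, 47 and 16 fragments, with the strongest (11.1-fold) 19519 bp downstream of its start and none at its ends. No shNT region was listed. The mitochondrial transporters held weaker regions. ABCB10, which acts in heme synthesis, had 13 fragments at its start in shNIT2 (4.02-fold) and an interior shNT region of 3 fragments. ABCB6, a porphyrin transporter, had 32 fragments in shNIT2 and 7 in shNT in overlapping regions 1321 and 1503 bp downstream of its start. ABCB8 had 22 fragments inside in shNIT2 alone. ABCB9, a lysosomal peptide transporter, had 6 shNIT2 regions of 13 to 29 fragments, with 29 at the end opposite its starts, and 2 shNT regions of 6 fragments. The region of 29 fragments had its summit 1334 bp inside the gene and overlapped one of these shNT regions. With a 500 bp window that end was not marked. The potassium channel regulators are ABCC8 and ABCC9. ABCC8 had interior regions of 16 and 38 fragments in shNIT2 and 4 fragments in shNT, whereas ABCC9 had 6 fragments at a gene end in shNT (4.51-fold) and none in shNIT2. That ABCC9 end is the one opposite its listed start, with the summit 1005 bp inside the gene and the region over KCNJ8-AS1. A 500 bp window or region midpoints left it unmarked. In subfamily G, ABCG8 had 1 interior shNT region of 6 fragments, and its neighbour and partner in sterol export, ABCG5, had none.

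Where the lists had overlapping regions, the pileup divided by the floor was higher in shNIT2 in 4 pairs and in shNT in 9. There were 13 overlapping pairs in 7 genes: ABCB6, ABCB9, ABCC3, ABCC4, ABCC5, ABCC8 and ABCG2. They involved 12 shNIT2 regions, since 1 region of ABCC5 met 2 shNT regions. With the high end of ABCC3, 13 of the 81 shNIT2 regions overlapped a shNT region (16.05%), against 11.7% of all shNIT2 regions. Of the 43 shNT regions 13 overlapped a shNIT2 region (30.2%), against 9.06% of all shNT regions. The 11.7% and 9.06% cover regions anywhere in the genome, not those over genes alone. Most of the 13 shNT regions lay in ABCC3, ABCC4 and ABCC5. The ratio of shNIT2 to shNT, each over its own floor, ran from 0.386 to 1.66 with a median of 0.593. Its exact 95% interval, from counting error in these 2 libraries, contained 1 in 11 pairs. It lay below 1 in the other 2, inside ABCC3 (0.386, 0.179 to 0.921) and inside ABCC4 (0.527, 0.309 to 0.949), and above 1 in 0 pairs. An interval that contains 1 does not show that the pileups were alike, since the shNT regions of these pairs held 4 to 17 fragments. At the end of ABCC3 the ratio was 1.01 (0.485 to 2.42), from 29.0 times the floor in shNIT2 and 28.8 in shNT. The 2 summits of a pair need not coincide, and the intervals were not adjusted for 13 pairs. A shNT region enters only from 3 fragments up, or 10.8 times its floor. Any shNIT2 region below 26.8 fragments can thus pair only with a higher shNT value, as in ABCC8 (16 fragments). This entry limit can tilt the counts of 9 and 4 and the median ratio toward shNT.

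**Figure D4:**
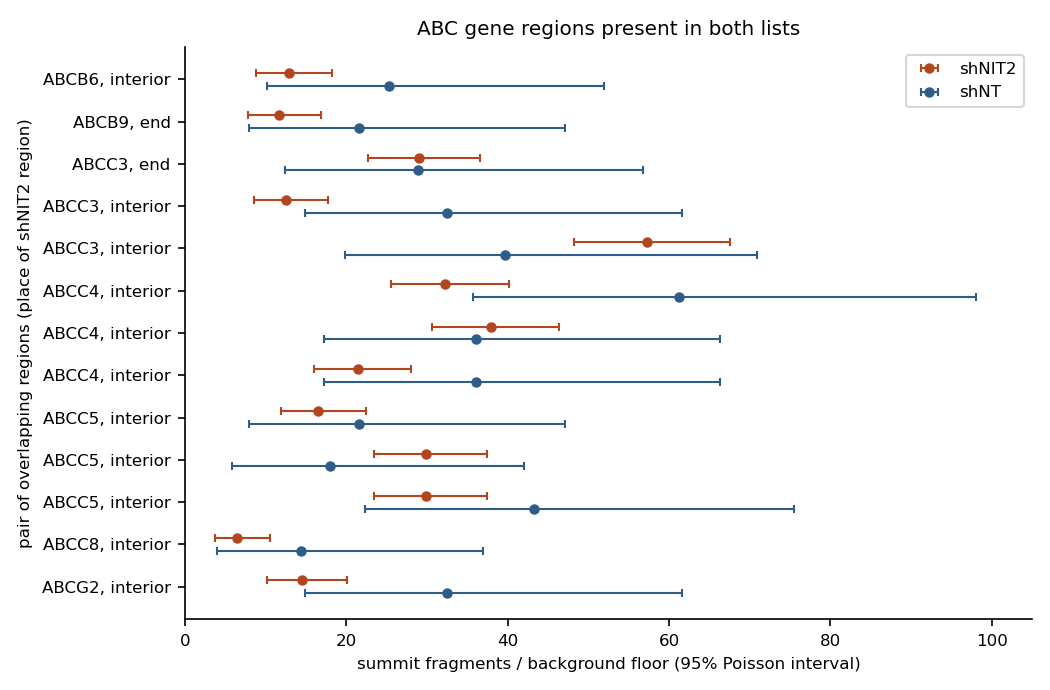
Summit fragments divided by the background floor for the 13 overlapping pairs, with exact Poisson 95% intervals, shNIT2 above shNT in each row. The 2 intervals of every pair overlap, and the shNT value is the higher one in 9 pairs.

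Gene starts could be placed for 35 of the 45 genes, which had 53 listed starts in the RefSeq table of 300-base start windows (GRCh38.p14). Genes without an entry included ABCA4, ABCA8, ABCB4, ABCB5, ABCC1, ABCC3, ABCC8 and ABCG1. A shNIT2 region came within 1 kb of a listed start in 10 of the 35 genes (28.6%), against 39.3% of the 15841 protein-coding genes with a listed start. In shNT this was so for 1 gene, ABCB9 (2.86%), against 6.16%. Starts of one gene can share a region. The windows below show 5 starts on which the comparison turns: 2 exporters marked at the start in shNIT2 (ABCC5 and ABCC2), a translation factor (ABCE1), a lipid transporter (ABCA12) and the unmarked start of ABCC4, whose regions all lie inside. Each runs from 250 bases before the start to 50 bases from it on, 5′ to 3′ on the gene's strand, with CpG dinucleotides in capitals.
ABCC5, chr3:184017835-184018134, minus strand: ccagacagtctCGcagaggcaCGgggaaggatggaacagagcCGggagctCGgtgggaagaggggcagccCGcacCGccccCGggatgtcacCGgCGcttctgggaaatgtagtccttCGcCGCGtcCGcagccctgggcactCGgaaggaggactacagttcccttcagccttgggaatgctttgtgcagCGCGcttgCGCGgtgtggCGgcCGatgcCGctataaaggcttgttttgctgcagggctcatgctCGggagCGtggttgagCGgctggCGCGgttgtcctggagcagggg
ABCC2, chr10:99782390-99782689, plus strand: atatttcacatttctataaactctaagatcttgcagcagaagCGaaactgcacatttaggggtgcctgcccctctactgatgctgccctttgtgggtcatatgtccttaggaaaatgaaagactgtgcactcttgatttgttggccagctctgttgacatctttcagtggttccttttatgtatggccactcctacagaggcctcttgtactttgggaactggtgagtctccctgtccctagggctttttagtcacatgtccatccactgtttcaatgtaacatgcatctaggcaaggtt
ABCE1, chr4:145098061-145098360, plus strand: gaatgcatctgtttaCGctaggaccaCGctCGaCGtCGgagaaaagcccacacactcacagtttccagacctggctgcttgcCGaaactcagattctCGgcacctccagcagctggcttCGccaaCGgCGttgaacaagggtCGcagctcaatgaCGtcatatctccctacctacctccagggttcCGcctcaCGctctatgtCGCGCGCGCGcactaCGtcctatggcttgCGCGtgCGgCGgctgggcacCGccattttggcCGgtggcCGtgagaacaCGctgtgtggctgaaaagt
ABCA12, chr2:215138577-215138876, minus strand: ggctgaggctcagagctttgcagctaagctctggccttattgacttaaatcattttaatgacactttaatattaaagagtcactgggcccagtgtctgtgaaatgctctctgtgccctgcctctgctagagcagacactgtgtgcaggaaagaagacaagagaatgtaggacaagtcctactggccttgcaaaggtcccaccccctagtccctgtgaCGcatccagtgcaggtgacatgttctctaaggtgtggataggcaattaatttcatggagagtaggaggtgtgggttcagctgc
ABCC4, chr13:95301402-95301701, minus strand: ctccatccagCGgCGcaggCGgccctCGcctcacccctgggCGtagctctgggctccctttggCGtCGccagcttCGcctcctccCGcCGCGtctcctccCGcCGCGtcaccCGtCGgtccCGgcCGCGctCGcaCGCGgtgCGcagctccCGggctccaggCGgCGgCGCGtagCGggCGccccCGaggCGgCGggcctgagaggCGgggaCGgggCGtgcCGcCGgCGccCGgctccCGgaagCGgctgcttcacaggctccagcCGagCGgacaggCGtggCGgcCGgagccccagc

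The marked starts were of both kinds. ABCC5 has 26 CpG in its window, and ABCE1 28, whereas ABCC2 and ABCA12, marked in shNIT2 too, have 1 each. The window of ABCC4 has 47 CpG and had no region within 1 kb in either list. Over the ABC genes the median was 28 CpG at the 11 starts with a shNIT2 region and 17 at the 42 without, and over all protein-coding genes 28 and 14. Of the 34 ABC starts with 10 or more CpG, 9 had a shNIT2 region (26.5%), against 47.5% of 15534 such starts over all genes. Of the 19 ABC starts with fewer, 2 had one (10.5%), against 12.4%. These counts take overlapping windows of one gene, such as those of ABCG2 and ABCC6, as separate starts. CpG-rich starts without a shNIT2 region included those of ABCA1, ABCA3, ABCA5, ABCA7, ABCC6, ABCF1 and ABCG4.

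**Figure D5:**
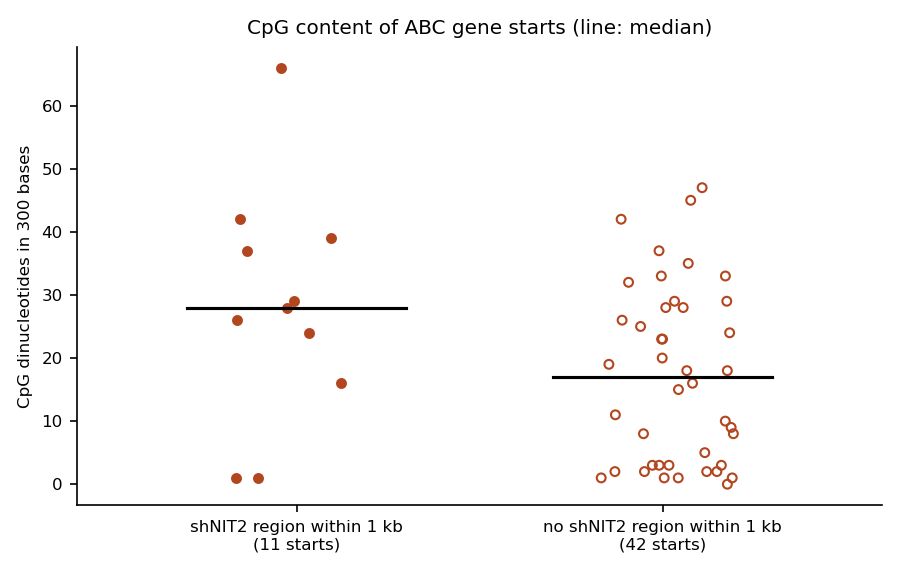
CpG dinucleotides in the 300-base window of each of the 53 listed ABC gene starts, for 11 starts with a shNIT2 region within 1 kb (filled) and 42 without (open), spread sideways for legibility, with the median as a line. The medians are 28 and 17, and both groups hold starts with 1 CpG.

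Searched on both strands, the GC box GGGCGG occurred in 25 of the 53 ABC windows (47.2%), against 56.3% of all windows. CCAAT occurred in 12 (22.6%), against 34.7%. The letters TGACNNNGC, the core of the antioxidant response element that NRF2 binds, occurred in 12 windows (22.6%), against 13.8%. Among the exporters this included ABCC4, 1 start each of ABCC10, ABCC11 and ABCG2, and no start of ABCC2, ABCC5 or ABCB1. Of the 11 windows marked in shNIT2, 7 held GGGCGG, 2 TGACNNNGC and 1 CCAAT. The E-box CACGTG occurred in 9 windows (17.0%), against 8.34%, and in 0 of the 11. Windows of one gene can overlap and were counted apart. The overlapping ABCG2 windows 88158810 to 88159109 and 88158860 to 88159159 both held the E-box. Matches are letters in a window and do not show a bound site.

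Genes that are known to regulate ABC genes were looked at beside them. Of 18 such transcription factors and regulators, 11 had a shNIT2 region at a gene end (36.8% of all genes) and 4 a shNT region (6.41% of all genes), 3 of them in both (5.12% of all genes). NFE2L2, which encodes NRF2, had 145 fragments in shNIT2 (30.2-fold) and 9 in shNT (6.23-fold), and its inhibitor KEAP1 had 116 in shNIT2 (23.8-fold) and 7 in shNT (5.55-fold). PPARG, a nuclear receptor of lipid metabolism, had 90 in shNIT2 (17.8-fold) and 10 in shNT (7.79-fold), with 12 interior shNIT2 regions. The xenobiotic receptors NR1I2 and NR1I3, which induce drug transporters in liver, had none at a gene end in either list, and the sterol sensor NR1H2 had 5 fragments in shNT alone. Of 3 family members with other symbols, TAP1, the antigen peptide transporter, had 40 fragments at a gene end in shNIT2 (7.56-fold). CFTR had 1 interior shNIT2 region, TAP2 had none in shNIT2, and the shNT list had no region over any of the 3.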

How the data were processed

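H3K14ac ChIP-seq was analysed from 2 peak lists, 1 per library and condition. Per the submitters' processing notes, reads were handled with MACS2 2.1.1, Bowtie2 2.2.6, ChIPseeker, FastQC, Trimmomatic 0.35 and cutadapt 1.9.1 (no order or roles given), on hg38. The sources used here do not state whether the inputs served as control, nor how duplicate or multiply mapped reads were treated. ABCC6, ABCE1, ABCF2, ABCB10 and ABCA3 have pseudogene copies in the gene table, so their listing is uncertain. The deposited lists hold a score, the fold enrichment (a ratio), −log10 p and −log10 q per peak, and the summit position. These are the authors' own values, used within a list only. Total reads are unknown.

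Pileup and background were solved from the deposited fold and −log10 p by the Poisson upper tail (a whole pileup matched −log10 p to 0.1% in 99.96% of shNIT2 and of shNT regions, and in every region over an ABC gene). Their division by the floor was added after seeing the data. Positions are 1-based. A region counted with 1 bp of overlap. With 1 library per condition no test was made across samples. The members, lists and named-gene rule (all exporters, genes marked in shNT and the 10 other genes marked at an end) were chosen with earlier results of these data known. Results for some single genes are not reported here, though counts include them. Scripts were tested on simulated data. Python 3.11.15, pandas 2.3.3, SciPy 1.17.1 and NumPy 2.4.6 were used. Alternatives changed the peak threshold, window, overlap rule and background.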

Additional observations from a re-analysis of the deposited data

How the results depend on the processing

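Counts stayed when within 1.5 times the value in the report. Recomputed under the alternatives, 44 values for the whole family or the exporters stayed and 31 moved; for single subfamilies 29 stayed and 27 moved. No paired analysis was possible because each condition had 1 library. At −log10 q of at least 5, ABC genes with a region at a gene end were 9 in shNIT2 (9 in shNIT2 alone) and 0 in shNT (0 exporters), and shNT regions were left over the span and interior of 4 genes. At a fold of at least 5 there were 4 genes marked at an end in shNIT2 (2 exporters, 3 genes in shNIT2 alone) and 1 in shNT, 14 over the span in shNIT2 and 8 in shNT, and 8 with a shNT interior region. The same fold is not a like threshold in the 2 lists, since their backgrounds differ. With the 15000 strongest regions of each list, 8 were marked at an end in shNIT2 (3 exporters, 7 genes in shNIT2 alone) and 1 in shNT, with 5 over the span and 5 in the interior in shNT. A 3 kb window raised the shNT count at gene ends to 9 (4 exporters), or 20% against 12.1% of all genes, so that the ABC share in shNT was above that of all genes, not below it. The same held with the 15000 strongest regions (2.22% against 1.67%). A 500 bp window, region midpoints and 50% of the region inside the window each gave 1 in shNT. Only shNIT2 regions of 26.8 fragments or more, an alternative chosen after seeing the data, left 6 genes at an end (3 exporters, 5 genes in shNIT2 alone) and 15 over the span. Overlap of 50% of both regions left 0 genes with a shared end region, in place of 1 (ABCC3). Genes of similar span had the shares of 56.9% in shNIT2 and 38.8% in shNT given in the report. Over the span, not matched for length, the ABC share at a fold of at least 5 was 31.1% against 24.9% of all genes in shNIT2. In shNT it was 17.8% against 10.4%. With the 15000 strongest regions the span shares were 37.8% against 33.0% in shNIT2 and 11.1% against 6.69% in shNT. At −log10 q of at least 5 they were 42.2% against 36.0% in shNIT2 and 8.89% against 5.93% in shNT. The ABC share of genes marked at an end in shNIT2 was below that of all genes under every one of these thresholds and windows. It was 8.89% against 18.3% at a fold of at least 5, and 37.8% against 41.4% with a 3 kb window. The lowest entry of the shNT list was 3 fragments.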
